A study of Mus musculus with 6 samples.

Results

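The imprinted growth genes were 10 genes taken by name from the deposited table of kidney RNA: *Cdkn1c*, *Grb10*, *Peg3*, *Plagl1*, *Mest*, *H19*, *Igf2*, *Dlk1*, *Rian* and *Meg3*. A row was kept when the gene field of its name equalled one of these symbols. All 10 were found, among 23276 gene symbols, and together they held 45 transcript rows. Of these rows, 23 carried a RefSeq identifier and 22 had been assembled from the reads. The RNA came from whole kidneys of 6 mice at post-natal day 22 by the labels (the study's text gives an age of a day less). The Pkd1 F/RC SKO group held 3 mice of the genotype KspCre; Pkd1 F/RC. The Pkd1 F/RC DKO group held 3 mice that carried, in addition, miR17~92 F/F. All 6 mice therefore had the hypomorphic RC allele of *Pkd1* from the germline and a floxed allele open to Ksp/Cre, a recombinase expressed in renal tubules, so cells outside the tubules kept the floxed alleles and no wild-type kidney was used here. The mice were on the B6 background.

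Each transcript had 1 abundance value, the authors' mean over the libraries of their comparison in counts per 1000000 counts over all rows (CPM). The value of a single kidney was not analysed here, so no level below has an SD, a depth or an interval. No difference between SKO and DKO kidneys is given, and the deletion in the DKO group could not be checked. The levels describe both genotypes together. *Pkd1* had a mean of 31.8 CPM, *Pkd2* a mean of 98.1 CPM and *Mir17hg*, the host transcript of the miR-17~92 cluster, a mean of 4.21 CPM.

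Imprinted genes are transcribed mainly from the allele of 1 parent, and which allele is silent is set by DNA methylation laid down in the germ line. Many act on growth before birth and are then turned down as organs mature. Paternally expressed members include *Igf2*, a fetal growth factor, *Dlk1*, a Notch-like membrane protein, *Plagl1* and *Peg3*, which encode zinc finger proteins, and *Mest*, which encodes a hydrolase-like protein. Maternally expressed members include *Cdkn1c*, an inhibitor of cyclin-dependent kinases, *Grb10*, an adaptor that dampens insulin and IGF receptor signalling in most tissues, and the non-coding RNAs *H19*, *Meg3* and *Rian*. The reads were not assigned to parental alleles here.

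The study deleted miR-17~92, so the mature miRNAs of that cluster are given first, to show the seeds that were later sought in the members. The sequences are those of RefSeq on GRCm38.p6 (chromosome 14, forward strand), with the seed (bases 2 to 8) in capitals. miR-17 and miR-20a share 1 seed, and miR-19a and miR-19b share another.
miR-17-5p: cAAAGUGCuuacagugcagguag
miR-20a-5p: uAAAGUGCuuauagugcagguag
miR-18a-5p: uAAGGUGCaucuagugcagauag
miR-19a-3p: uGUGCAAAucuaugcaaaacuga
miR-19b-3p: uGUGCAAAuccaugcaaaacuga
miR-92a-3p: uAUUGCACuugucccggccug

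The members spanned a wide range of abundance. For comparing genes, CPM was divided by the length of the GENCODE transcript matched to the most abundant RefSeq row. *Cdkn1c* was the highest at 8.96 CPM per kilobase and *Meg3* the lowest at 0.129 CPM per kilobase, a 69.5-fold range. When the transcript with the most CPM per kilobase stood for each gene instead, *Meg3* had 0.712, *Rian* was the lowest at 0.283 and the range was 31.6-fold. In between, by the first choice, in falling order, were *Grb10* (5.83 CPM per kilobase), *Peg3* (3.59), *Plagl1* (3.49), *Mest* (2.50), *H19* (0.954), *Igf2* (0.732), *Dlk1* (0.328) and *Rian* (0.283). Neighbours in this order cannot be separated, because the pooled values have no spread. The median gene stood at 0.869 CPM per kilobase. On that scale 6 of the 10 members lay above it, the same number as in CPM, where the median gene had 2.36 CPM. The members on either side of the median differed by scale: *H19* was above it per kilobase and below it in CPM, and *Igf2* the reverse. For *Igf2* this held by NM_010514. By the shorter NM_001122737 it had 0.885 CPM per kilobase, just above 0.869.

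In CPM, with no division by length, 9 of the 10 members (90%) had a mean of at least 1 CPM, against 55.9% of all genes. *Dlk1*, at 0.559 CPM, was the exception. The lowest value in the whole table was 0.0263 CPM, shared by 4617 rows, and the highest row of *Dlk1* was 21.2 times that value. All 45 rows of the members lay above it, as did all but those 4617 of the 54721 rows. In RNA of a whole kidney, fewer cells that express a gene and less of its RNA per cell cannot be told apart.

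**Figure D1:**
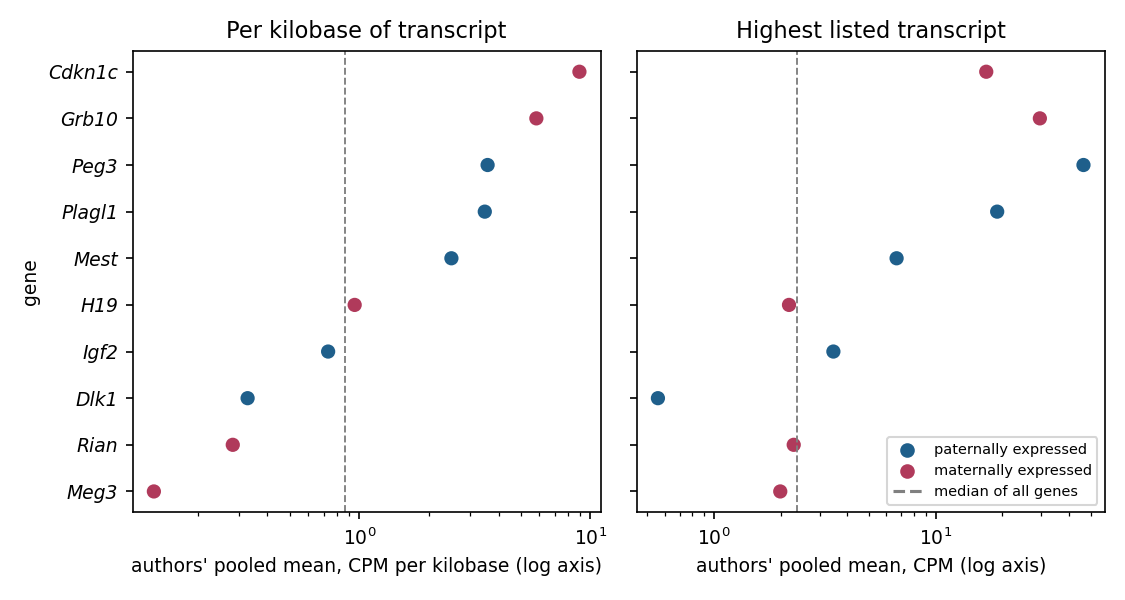
Authors' pooled mean abundance of the 10 genes over 6 kidneys, per kilobase of matched transcript (left, CPM per kilobase, log axis) and as the highest listed transcript (right, CPM, log axis). Blue points are paternally and red points maternally expressed genes, the dashed line is the median of all genes, and 1 point is 1 gene with no error available. *Cdkn1c* leads per kilobase at 8.96, and *Peg3* leads in CPM at 46.4.

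*Cdkn1c* and *Grb10*, both of which restrain growth, were the most abundant members per kilobase. *Cdkn1c* (chromosome 7, 143458339 to 143461059 on GRCm38, the assembly also named mm10) had 3 rows between 16.90 and 16.91 CPM, which was a higher level than that of 77.4% of genes. Per kilobase it exceeded 86.1% of genes. Among the other cyclin-dependent kinase inhibitors, *Cdkn1b* had 12.2 CPM per kilobase, *Cdkn1a* 7.69 and *Cdkn2a*, a gene of senescent cells, 0.108. Of 6 such genes 5 had at least 1 CPM. The pooled value of *Cdkn1c*, 8.96 CPM per kilobase, lay between those of its closest relatives, *Cdkn1b* and *Cdkn1a*. Since these values have no spread, the levels cannot be separated.

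*Grb10* (chromosome 11, 11930499 to 12037428) had 4 rows, from 29.2 to 29.5 CPM. It stood at 5.83 CPM per kilobase, above 79.4% of genes. *Grb14* and *Grb7*, the adaptors of the same family, had 5.98 and 10.3 CPM per kilobase. *Grb2*, the general adaptor of receptor tyrosine kinases, had 11.6.

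Among the paternally expressed transcription regulators, *Peg3* (chromosome 7, 6703892 to 6730462) had the highest row of all members, an assembled transcript with 46.4 CPM. Its 5 rows covered a 21.8-fold range, the widest of any member. The RefSeq transcript, NM_008817, had 31.2 CPM, 2 assembled transcripts had 45.1 and 46.4 CPM, and the other 2 had 3.00 and 2.13 CPM. The highest assembled count was therefore 15.2 CPM above that of the RefSeq model. *Zim1*, an imprinted zinc finger gene 7.35 kb from *Peg3*, had 0.508 CPM per kilobase, so that *Peg3* was 7.06-fold higher. *Usp29*, which starts within 0.097 kb of *Peg3* and is read in the opposite direction, had only 0.0888 CPM.

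*Plagl1* (chromosome 10, 13090832 to 13131694) had 18.3 CPM for NM_009538 and 18.9 CPM for an assembled transcript. It is the imprinted member of the PLAG family of zinc finger factors. Per kilobase it was 12.4-fold above *Plag1* (0.281 CPM per kilobase), and *Plagl2* lay between them at 1.83.

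*Mest* (chromosome 6, 30733506 to 30748466) had 3 RefSeq rows between 6.53 and 6.67 CPM and no assembled row. Its 3′ end overlaps *Copg2*, a coat protein gene on the other strand, which had 19.1 CPM. Whether reads were counted by strand was not given in the sources used here, so a part of the *Mest* count from *Copg2* cannot be told apart. *Mest* is also expressed in fat. The 4 fat markers were all above 1 CPM in these kidneys, from 2.14 CPM for *Plin1* to 19.8 CPM for *Ucp1*, and summed to 32.2 CPM, and their part in the level of *Mest* was not tested.

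**Figure D2:**
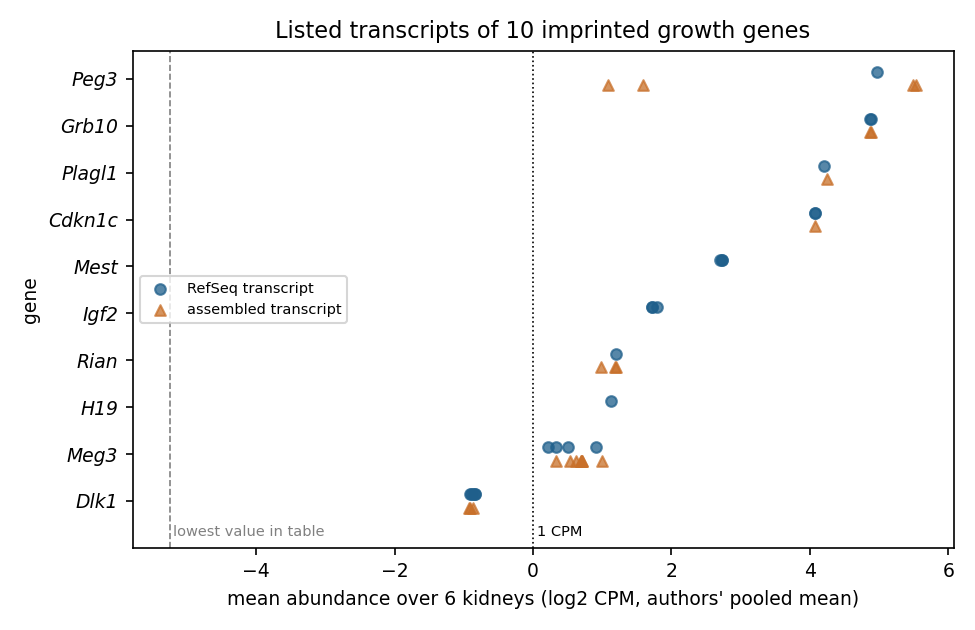
Mean abundance (log2 CPM, the authors' pooled mean over 6 kidneys) of all 45 listed transcripts of the 10 genes, with genes in order of their highest row. Circles are RefSeq and triangles assembled transcripts, the dotted line is 1 CPM and the dashed line the lowest value in the table, at -5.25. The rows of *Peg3* spread from 1.09 to 5.54 on the log2 scale, while those of *Cdkn1c*, *Grb10* and *Mest* nearly coincide.

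*Igf2* and *H19* are neighbours on chromosome 7 that share enhancers and are expressed from opposite parental alleles. *Igf2* (142650768 to 142666816) had 3 RefSeq rows, with 3.46 CPM for NM_010514 and 3.28 CPM for each of NM_001122736 and NM_001122737. *H19* (142575530 to 142578146) had a single row with 2.18 CPM. In CPM *Igf2* was 1.59-fold the level of *H19*, and per kilobase it was 0.768 of it. The order of the pair therefore turned with the division by length. The length used for *H19*, 2286 nucleotides, is that of its longest GENCODE transcript, since its RefSeq identifier had no match. The length used for *Igf2*, 4722 nucleotides, is that of NM_010514. By NM_001122737, of 3708 nucleotides, *Igf2* had 0.885 CPM per kilobase, beside 0.954 for *H19*.

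*Igf2* was low beside its pathway. *Igf1*, the growth factor that predominates after birth, had 23.6 CPM per kilobase, 32.2-fold the level of *Igf2*. The receptor *Igf1r* had 6.73 CPM per kilobase and *Igf2r*, an imprinted gene whose product clears IGF2, had 4.11, which was 5.62-fold the level of *Igf2*. With no division by length *Igf1* had 39.5 CPM, *Igf2r* 36.6 CPM and *Igf2* 3.46 CPM. The size of both ratios therefore depends on the matched lengths. The most abundant gene of the pathway list was *Igfbp7*, an IGF-binding protein, at 393.9 CPM. *Igf2bp1*, *Igf2bp2* and *Igf2bp3* encode proteins that bind *Igf2* mRNA and had 3.04, 4.48 and 0.803 CPM, beside 2.36 CPM for the median gene. Per kilobase they had 0.359, 1.15 and 0.185 CPM, beside 0.869 for the median gene. Of the 18 genes of the list, 15 had at least 1 CPM, and *Ins1* was at the lowest value of the table.

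On chromosome 12, *Dlk1*, *Meg3* and *Rian* form a single imprinted domain, and all 3 were among the 4 lowest members in CPM. *Dlk1* (109452485 to 109463336) had 8 rows within a narrow range, from 0.529 to 0.559 CPM. Per kilobase it had 0.328 CPM, and its relative *Dlk2*, with 0.190 CPM, had 0.107 CPM per kilobase. The Notch receptors, with which DLK1 is thought to interact, ran from 1.54 CPM per kilobase for *Notch4* to 2.95 for *Notch2*, which had 30.9 CPM. *Dlk1* is also expressed in the adrenal gland. Of 8 adrenal markers the highest was *Star*, a steroid-synthesis gene, at 0.892 CPM. *Star* was above *Dlk1* in CPM and below *Dlk1* per kilobase, at 0.221 against 0.328 CPM per kilobase. *Cyp11b1* and *Cyp11b2*, which define the steroid-making zones, had 0.0352 and 0.0263 CPM, at or near the lowest value. The 8 markers summed to 1.18 CPM, and the part of adrenal tissue in the level of *Dlk1* was not tested.

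*Meg3* (109540996 to 109571729) had the most rows, 12, from 1.17 to 1.99 CPM. The longest RefSeq transcript, NR_003633, had 1.88 CPM and its match is 14548 nucleotides long. NR_027652, whose match of 1896 nucleotides is 7.67-fold shorter, had 1.26 CPM. The long transcript thus held 1.49-fold the counts of the short one. Per kilobase the short transcripts NR_027651 and NR_027652 stood at 0.712 and 0.663 CPM per kilobase, against 0.129 for NR_003633. The level given for *Meg3* therefore depends on the transcript that stands for it.

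*Rian* (109603945 to 109661716) had 4 rows from 1.97 to 2.29 CPM. It hosts tandem snoRNA genes, of which 13 are annotated within it on the same strand. Only 4 of these had a row of their own, and 3 of the 4 were at the lowest value. No level of mature snoRNAs is read from these rows. The remaining genes of the domain were also scarce: *Rtl1*, a retrotransposon-derived gene needed in the placenta, had 0.103 CPM, *Mirg*, a miRNA host RNA, had 0.0845 CPM and *Dio3*, which inactivates thyroid hormone, had 0.322 CPM. No gene of the domain that was looked at reached 3 CPM.

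Distal chromosome 7 held a different picture. Beyond *Igf2*, the insulin gene *Ins2*, the tyrosine hydroxylase gene *Th* and *Ascl2*, a trophoblast factor, were near the lowest value, at 0.0278, 0.0339 and 0.0584 CPM. The genes around *Cdkn1c* were well above 1 CPM except *Phlda2*, a placental growth regulator, at 0.886 CPM. *Slc22a18*, a transporter gene that lies 12.7 kb from *Cdkn1c*, was the most abundant of them, with 47.6 CPM and 3.42-fold the level of *Cdkn1c* per kilobase. *Kcnq1ot1*, the non-coding RNA that silences this domain on the paternal allele, had 29.1 CPM but, being very long, 0.313 CPM per kilobase, below *Cdkn1c* and the median gene. It lies within *Kcnq1* on the other strand, so without strand in the counting reads of the 2 genes cannot be told apart.

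**Figure D3:**
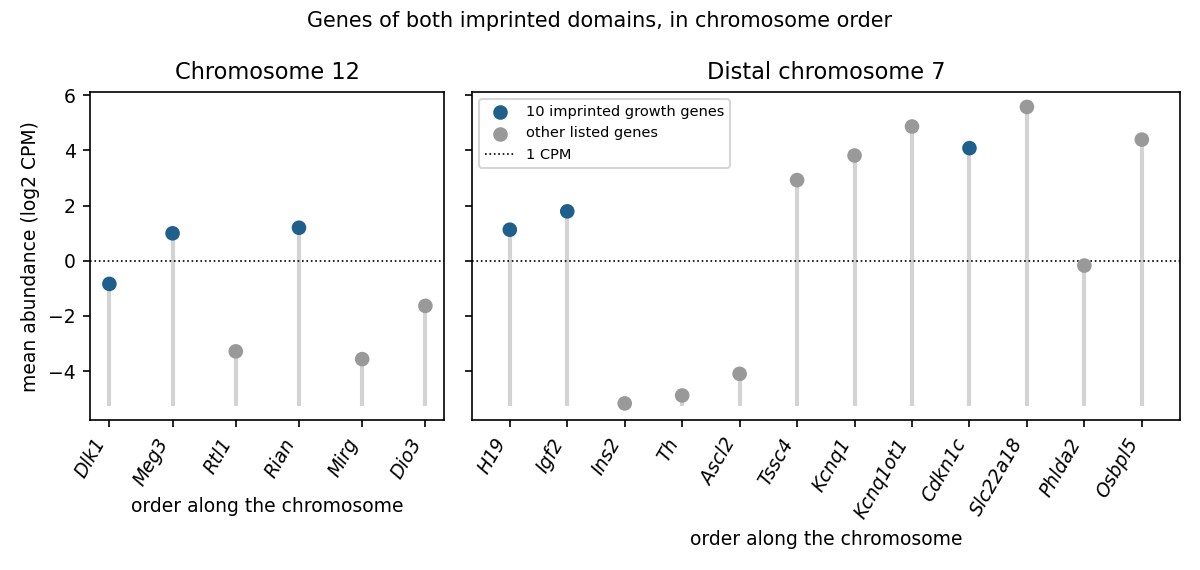
Mean abundance (log2 CPM, the authors' pooled mean) of genes of the imprinted domains on chromosome 12 (left) and distal chromosome 7 (right), in chromosome order and not to distance. Blue points are the imprinted growth genes, grey points other listed genes within 1 Mb of one of them, stems start at the lowest value in the table and the dotted line is 1 CPM. *Meg3* and *Rian* are the only genes plotted for chromosome 12 that pass 1 CPM, and *Slc22a18* is the highest for chromosome 7 at 5.57.

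Neither parental class was uniformly the more abundant. The 5 paternally expressed members ran from 0.328 to 3.59 CPM per kilobase with a median of 2.50, and the 5 maternally expressed members from 0.129 to 8.96 with a median of 0.954. The ranges overlapped, and the highest and the lowest member were both maternally expressed.

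As a whole the members were less abundant than markers of the kidney itself. All 11 kidney markers were detected above 1 CPM, from *Nphs1*, a podocyte gene, at 12.97 CPM to *Kap* at 4694.5 CPM, and *Cdh16*, whose promoter drives Ksp/Cre, had 480.4 CPM. Of 4 skeletal muscle markers none reached 1 CPM, from *Myh4* at the lowest value to *Acta1* at 0.0890 CPM. Of 4 liver markers 3 did, from *Afp* at 0.481 CPM to *Ttr* at 18.2 CPM. The part of these cells in the levels of the members was not tested. Stromal and vessel genes ranged from 27.0 CPM for *Kdr* to 128.1 CPM for *Col1a1*. A list of 45 other imprinted genes had a median of 2.57 CPM per kilobase, with 31 genes (68.9%) at 1 CPM or more. Whether each of the 45 is imprinted in kidney was not examined. The members had a median of 1.73 CPM per kilobase. Of 14 genes that set, keep or remove DNA methylation or bind imprinting control regions, 11 had at least 1 CPM. They ran from the de novo methyltransferase *Dnmt3a* at 61.1 CPM down to the germ-line factor *Dppa3* at 0.0438 CPM. *Zfp57*, which binds methylated imprinting control regions, had 4.15 CPM and *Dnmt1*, the maintenance methyltransferase, had 18.9 CPM.

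**Figure D4:**
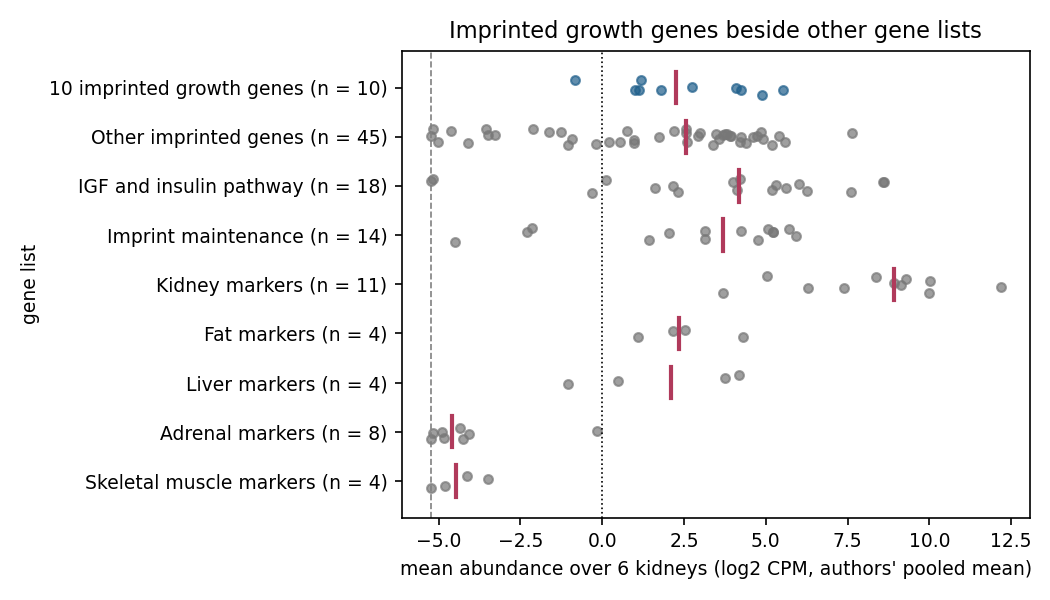
Mean abundance (log2 CPM, the authors' pooled mean over 6 kidneys) of the 10 imprinted growth genes beside other gene lists and marker lists, 1 point a gene, with the number of genes at the left. The red bar is the median of a list, the dotted line is 1 CPM and the dashed line the lowest value in the table. Kidney markers lie highest, with a median of 480.4 CPM, and adrenal and skeletal muscle markers lie near the lowest value.

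Of the 10 members, 5 hold annotated miRNA hairpins within their span: *H19*, *Igf2*, *Mest*, *Meg3* and *Rian*. They contain 8 hairpins, which give 15 mature miRNAs listed by RefSeq, each with a different seed. None of these seeds is that of a miRNA of the miR-17~92 cluster. One miRNA of each host is shown here, with the seed in capitals, for comparison with the cluster above.
miR-675-5p, in *H19*: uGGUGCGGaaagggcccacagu
miR-483-3p, in *Igf2*: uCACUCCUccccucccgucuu
miR-335-5p, in *Mest*: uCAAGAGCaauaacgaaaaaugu
miR-770-5p, in *Meg3*: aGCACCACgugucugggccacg
miR-370-3p, in *Rian*: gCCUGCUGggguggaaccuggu

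Of the 8 hairpins, 7 had a row in the table, and 6 of these were at the lowest value. *Mir770* was marginally above it, at 0.0293 CPM. The hosts themselves ranged from 1.99 to 6.67 CPM. The libraries were made from total RNA, so these rows count fragments that overlap a hairpin and say nothing of mature miRNAs.

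Matches to the seeds of miR-17~92 were sought on the sense strand, in the 3′-UTRs of the 7 coding members and in the whole transcripts of *H19*, *Meg3* and *Rian*. For each gene only 1 transcript was searched, the match of its most abundant RefSeq row with a length. The motifs were GCACTTT for miR-17 and miR-20a, GCACCTT for miR-18a, TTTGCAC for miR-19a and miR-19b, and GTGCAAT for miR-92a. GCACTTT was found in none of the 7 coding 3′-UTRs. The 3′-UTRs set beside them were 18349, 1 for each listed coding gene that had a matched transcript. Of these, 11.4% hold GCACTTT, 7.43% the motif of miR-18a, 10.3% that of miR-19 and 6.15% that of miR-92a. For GCACTTT, among 3′-UTRs within 20% of the length of each member's, the share ran from 2.37% for *Dlk1* to 30.2% for *Peg3*. *Grb10* held 2 matches to miR-19, at positions 390 to 396 and 2252 to 2258 of its 2955-nucleotide 3′-UTR. Of 3′-UTRs of like length, 22.2% hold at least 1. *Cdkn1c* held 1 match to miR-92a in a 3′-UTR of 688 nucleotides (3.86% of those of like length), and *Igf2* 1 match to miR-18a in a 3′-UTR of 3047 nucleotides (17.9%). In the transcripts searched, the 3′-UTRs of *Dlk1*, *Peg3*, *Plagl1* and *Mest* held no match to any of the 4 motifs. For *Dlk1* this was the 3′-UTR of NM_010052, of only 340 nucleotides. Its rows with longer matches, such as NM_001190705 with 4106 nucleotides, were not searched. The matches in *Grb10*, *Cdkn1c* and *Igf2* are shown with 7 bases on each side and the match in capitals. They are on the strand of the transcript, from GENCODE on GRCm38.
Grb10, miR-19, chr11:11933067-11933073, minus strand: tcactttTTTGCACtccttct
Grb10, miR-19, chr11:11931205-11931211, minus strand: ccagcccTTTGCACaggcagc
Cdkn1c, miR-92a, chr7:143458863-143458869, minus strand: gaaaactGTGCAATgtattga
Igf2, miR-18a, chr7:142653233-142653239, minus strand: atcccaaGCACCTTtagtgta

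Among the non-coding members, the 14548-nucleotide transcript of *Meg3* held 2 matches to miR-17 and miR-20a, 3 to miR-18a and 3 to miR-19. A match to miR-19 and a match to miR-18a share bases there. The shorter *Meg3* transcripts NR_027651 and NR_027652, at 0.712 and 0.663 CPM per kilobase, were not searched. The searched transcript had 0.129 CPM per kilobase. *H19* and *Rian* each held 1 match to miR-19. Of 297 non-coding transcripts of like length, 15.2% hold the motif found in *H19*. For *Meg3* no non-coding transcript was of like length, and for *Rian* only 12 were, so no share is given. A match is a description of the sequence and was not tested as a site. The matches to miR-17 and miR-20a in *Meg3*, and those in *H19* and *Rian*, are shown in the same way.
Meg3, miR-17 and miR-20a, chr12:109545769-109545775, plus strand: tctaccaGCACTTTctttggc
Meg3, miR-17 and miR-20a, chr12:109567409-109567415, plus strand: gcacatgGCACTTTgcaaacc
H19, miR-19, chr7:142575824-142575830, minus strand: ttttgaaTTTGCACtaagtcg
Rian, miR-19, chr12:109649569-109649575, plus strand: gtaatcgTTTGCACactaaag

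Rows of the same gene were not separate measurements. Of the 45 rows, 14 had exactly the value of another row of their gene, as did the 2 rows of *Cdkn1c* at 16.91 CPM and the rows NM_010052 and NR_033813 of *Dlk1*. In 6 of the 9 members with several rows the highest row was under 1.1 times the lowest. *Peg3*, *Meg3* and *Rian* were the exceptions. For *Dlk1* the equal counts of NM_010052 and NR_033813 went with matched lengths of 1703 and 4653 nucleotides, so its level was 0.328 CPM per kilobase by the first and 0.120 by the second.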

How the data were processed

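Stranded total RNA libraries of 6 kidneys (3 Pkd1 F/RC SKO, 3 Pkd1 F/RC DKO) were sequenced from 1 end over 51 nucleotides. The authors trimmed and aligned these sequences to mm10 with TopHat2 2.0.12 and an iGenomes annotation, and dropped alignments under a mapping quality of 10. Cufflinks, featureCounts of Subread 1.4.6 and edgeR 3.2.4 are named in the submitters' processing notes. The deposited log2 values used here are the authors' mean log2 CPM for each of 54721 transcripts. The other columns hold the authors' own comparison of the groups (fold change, test statistic, p-value and adjusted p-value) and were not used. As CPM the rows sum to 1007270, so the counts are scaled over all rows, and reads on several transcripts of a gene count in each. Over the highest row of each gene the sum is 440391. The depth of a library is unknown. Normalization factors and the prior count behind the lowest value are not given in the sources used here.

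A gene was represented by its row with the highest mean CPM, over 23276 symbols; 9317 rows without a symbol were left out. Lengths were those of GENCODE M21 transcripts matched by RefSeq accession (29135 rows) or, for genes with no such match (*H19* and *Rian* among them), the longest of the symbol (456 rows); 970 RefSeq rows had none, nor had assembled rows. Where the highest row had no length, the highest RefSeq row with one was taken. 3′-UTRs began after the stop codon and had at least 50 nucleotides. Coordinates and miRNAs are from RefSeq on GRCm38.p6. No test was made, since each transcript has 1 pooled value. The text names the 10 members, genes of fixed lists of partners, neighbours and markers (the highest and the lowest of each, except 1 list whose values are not reported here), *Pkd1*, *Pkd2* and *Mir17hg*; other list genes named, and neighbours within 1 Mb, were chosen after their values were seen. The members and lists were chosen with earlier results of these data known. The ranking and motif search were tested on simulated data. Python 3.11.15, numpy 2.4.6, pandas 2.3.3 and matplotlib 3.10.9 were used.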

Additional observations from a re-analysis of the deposited data

How the results depend on the processing

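The number of members with a mean of at least 1 CPM stayed at 9 when the median or the lowest row stood for a gene and with RefSeq rows alone, and was 10 at a minimum of 0.5 CPM. At a minimum of 5 CPM it was 5. Between 4 and 8 members lay above the median gene under the alternatives, against 6: 4 when only genes at 1 CPM or more were ranked, 5 without genes at the lowest value, 6 per kilobase and 8 with RefSeq rows alone. With no division by length only 2 of the 10 members, *Grb10* and *Mest*, kept their place in the order. With the row of the highest CPM per kilobase 7 did, and *Dlk1*, *Meg3* and *Rian* moved among the last 3 places, while the range of the members went from 69.5-fold to 31.6-fold. With RefSeq rows alone the order is the same by construction, since only these rows have a length. No paired analysis was possible because each transcript has 1 value pooled over the kidneys, and leaving out a kidney was not possible for the same reason. What depth limits is unknown for the same reason, and levels near 0.0263 CPM, the lowest value, carry no information on order.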

Other observations

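Some imprinted genes lay outside the domains of the 10 members. Whether they are imprinted in kidney was not examined. *Gnas*, which encodes a stimulatory G protein subunit, was the most abundant of 45 at 200.4 CPM, followed among those not described above by *Ube3a*, a ubiquitin ligase gene, at 42.1 CPM. In the domain of Prader-Willi syndrome, *Snrpn* and *Snurf*, which share a transcript, had 5.85 CPM each, *Ndn* had 3.35 CPM, *Mkrn3* and *Peg12* had 0.530 and 0.479 CPM, and *Magel2* was at the lowest value of the table. *Peg10* and *Sgce*, a divergent pair on chromosome 6, had 1.96 and 7.96 CPM.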
